A study of Mus musculus with 8 samples.

Results

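The genes described here are 10 that set the shape and turnover of mitochondria: Mfn1, Mfn2, Opa1 and Oma1 act in fusion, Dnm1l, Fis1 and Mff in fission, and Pink1, Park7 and Fundc1 in mitophagy or mitochondrial stress defence. They were chosen by symbol from the deposited table, and all 10 were among its 14145 genes. RNA was sequenced from primary tubular epithelial cells of mouse kidney, grown in serum-containing medium and left untreated. Of 8 libraries, 4 labelled WT came from control mice (Aldh2Ctrl) and 4 labelled KO from mice named Aldh2TEC-KO, in which Aldh2, a mitochondrial aldehyde dehydrogenase, is targeted in tubular epithelium. The sources used here do not give the strain, the Cre driver, the age of the mice or the exact alleles. Nor do they say whether each library came from its own mouse, so a p-value here reflects library spread that could be technical in part.

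Mitochondria in most cells form a network that is joined and divided all the time. The mitofusins Mfn1 and Mfn2 join outer membranes and Opa1 joins inner membranes, while the GTPase Dnm1l is recruited to the outer membrane, by Mff among others, and cuts the organelle. Pink1 accumulates on damaged mitochondria and marks them for removal, and Fundc1 is an outer-membrane receptor for mitophagy. Proximal tubule cells are rich in mitochondria, and fragmentation of the network is a known feature of tubular injury.

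Aldh2 was read at 23.69 to 31.08 FPKM in the WT libraries and at 0.88 to 1.64 FPKM in the KO libraries (FPKM, fragments per kilobase of gene, scaled to library depth). The genotype field of the KO samples counts through ALDH2, ALDH3, ALDH4 and ALDH5, so groups were taken from the titles. Library depths recovered from the FPKM were 17040000 to 17750000 reads or fragments for WT and 17890000 to 18750000 for KO. By Xist and Y-linked transcripts all 4 WT libraries and KO 3 and 4 were male, and KO 1 and 2 were female, so that no female WT library exists to set beside KO 1 and 2. KO 3 and 4 also stood apart in other ways. The summed level of 12 measured transcripts of the mitochondrial genome was 4152 and 4947 FPKM in KO 3 and 4, against 11553 to 21505 FPKM in WT and 16171 and 15339 FPKM in KO 1 and 2. Of 13 markers of tubular epithelium 11 were measured, summing to 1454 to 3025 FPKM in WT and 908.3 to 6179 FPKM in KO, most of it from the keratins Krt8 and Krt18, where Krt8 reached 3553 FPKM in KO 3. The epithelial adhesion genes Epcam and Cdh1 had lower KO means, at 85.71 to 159.34 against 27.37 to 107.36 FPKM for Epcam and 107.82 to 209.78 against 30.10 to 155.82 FPKM for Cdh1 (log2 differences -1.22 and -1.26, limma adjusted p of 0.177 and 0.220). Of genes that mark the proximal tubule, Cubn and Slc34a1 were not among the rows analysed here, Lrp2 was at 1.24 to 15.15 FPKM and Cdh6 at 6.62 to 85.34 FPKM over all libraries, and Aqp1, chosen after its values were seen, was at or below 3.36 FPKM. All 12 macrophage and leukocyte markers were detected, summing to 48.4 to 1029.5 FPKM in WT and 223 to 1689.6 FPKM in KO. All 12 had a higher KO mean on the log2 scale (Lyz2 by 3.10, Tyrobp by 2.45, C1qb by 2.08 and Fcer1g by 1.96). Of the 12, 0 passed, and these 4 had a limma adjusted p of 0.232, 0.195, 0.242 and 0.233. The highest WT sum was that of WT 1, where Lyz2 was at 674.09 FPKM against 9.38 to 26.10 FPKM in WT 2 to 4. Lyz2 in KO 1, 3 and 4 lay below WT 1, at 397.75, 82.57 and 553.64 FPKM. No measured marker of these lists was at 0 in all WT libraries. Of the markers of fibroblasts and pericytes 6 of 9 were measured (133.1 to 1176 FPKM in WT, 586.8 to 1765 FPKM in KO), and those sums were mostly Acta2, at 98.40 to 726.39 against 560.69 to 1745.55 FPKM. The other way, 4 of the 6 had lower KO means (list median log2 difference -1.43), among them Col1a1, Pdgfrb and Col3a1. Their log2 differences were -1.40, -1.56 and -1.47 (limma adjusted p of 0.278, 0.152 and 0.219). Pdgfrb and Col3a1 were lower in every KO library than in any WT library, beside 6.86% of all genes. WT 1 held the most Col1a1, at 283.23 FPKM against 21.64 to 48.68 FPKM in WT 2 to 4. It also held 23.64 against 2.28 to 4.23 FPKM of Col3a1 and 17.25 against 3.62 to 5.41 FPKM of Pdgfrb. In endothelium 3 of 7 were measured, Eng, Esam and Emcn, and all 3 had lower KO means (sums of 5.10 to 7.16 against 1.55 to 3.29 FPKM). The part of these other cells in the results below was not tested, and in RNA from whole cultures fewer cells of a type and less RNA per cell cannot be told apart.

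The sequence upstream of a few of these genes is shown because genes of opposite behaviour in KO 3 and 4 can be compared in it. RefSeq windows (build GRCm38.p6) were matched for all 10 genes, and the 250 bases before the start site were searched on both strands for 6 motifs. These were the ETS motif bound by GABPA (CCGGAAGT), the NRF1 motif (GCGCNTGCG), an E-box (TCACGTGA), the YY1 motif (AAGATGGC), the ERR motif (AAGGTCA) and an antioxidant response element (TGACNNNGC). Matches are in capitals, and all letters are 5′ to 3′ along the gene:

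Fis1 (chr5:136953025-136953274, plus strand): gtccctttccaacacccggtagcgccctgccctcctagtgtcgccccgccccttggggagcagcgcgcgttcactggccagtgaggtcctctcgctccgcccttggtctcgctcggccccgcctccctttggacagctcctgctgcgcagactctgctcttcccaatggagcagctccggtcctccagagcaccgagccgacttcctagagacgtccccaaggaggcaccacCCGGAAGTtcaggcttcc

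Pink1 (chr4:138326297-138326546, minus strand): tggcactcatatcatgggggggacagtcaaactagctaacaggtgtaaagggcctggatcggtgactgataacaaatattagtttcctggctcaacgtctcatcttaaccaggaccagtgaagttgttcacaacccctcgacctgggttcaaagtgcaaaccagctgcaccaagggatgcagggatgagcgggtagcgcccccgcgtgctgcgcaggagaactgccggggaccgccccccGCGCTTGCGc

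Opa1 (chr16:29579084-29579333, plus strand): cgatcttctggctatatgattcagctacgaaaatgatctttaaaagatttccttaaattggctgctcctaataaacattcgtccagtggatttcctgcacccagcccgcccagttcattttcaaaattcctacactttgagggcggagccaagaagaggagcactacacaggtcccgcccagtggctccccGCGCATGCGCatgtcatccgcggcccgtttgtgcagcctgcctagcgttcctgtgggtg

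Dnm1l (chr16:16359032-16359281, minus strand): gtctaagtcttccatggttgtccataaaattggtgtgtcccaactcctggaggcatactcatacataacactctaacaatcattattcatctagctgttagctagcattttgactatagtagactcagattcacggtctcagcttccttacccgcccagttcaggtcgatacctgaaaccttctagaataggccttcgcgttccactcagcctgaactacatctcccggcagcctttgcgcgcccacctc

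The NRF1 motif, bound by a regulator of nuclear genes for mitochondrial proteins, was matched in 4 of the 10 windows, those of Opa1, Oma1, Pink1 and Park7, and in 5.4% of 27025 promoters of the same length. The ETS motif was matched in Mfn1 and Fis1 and in 2.93% of all promoters. In Opa1 the match reads as NRF1 on both strands, overlapping by all but 1 base, and starts 59 bases before the start site; in Pink1 it starts 10 bases before it. The other 4 motifs were matched in 0 of the 10 windows, with shares among all promoters of 0.803% for the E-box, 1.59% for YY1, 4.05% for ERR and 10.1% for the antioxidant element. The RefSeq start of Park7 lies 4516 bases inside the 5′ end of the gene as annotated in GENCODE M21, and that of Fundc1 lies 318 bases inside it. The windows of Park7 and Fundc1 therefore lie within the annotated gene. A match is a description of letters only: Pink1 and Opa1, which both hold the NRF1 motif, lay on opposite sides of WT in KO 3 and 4, as described below, and Dnm1l held none of the 6 motifs.

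No member passed the test over all genes when all 8 libraries were compared. At an adjusted p below 0.05 (limma on log2(FPKM + 1), adjusted over all 14145 genes) 0 of 10 members were called, against a background of 0.0778% of all genes, and 5 of 10 had an unadjusted p below 0.05, against 19.2%. With limma-voom on the recovered reads, which weights libraries by their spread, 8 of 10 were called, against 53.3% of all genes; its weights were 3.27 for KO 4, 0.58 for KO 3, and 0.149 and 0.235 for KO 1 and 2. Of the members 5 had a higher and 5 a lower KO mean on the log2 scale, with a median log2 difference of -0.01, while over all genes 6295 were higher and 7850 lower with a median of -0.06. The groups did not overlap for 1 member, Fis1, against 11.6% of all genes (4.76% higher and 6.86% lower in KO). None of the 10 carries an up or down mark in the authors' deposited table. There Mff and Fundc1 have log2 fold changes of 0.028 and 0.031, opposite in sign to the fit here (-0.13 and -0.20), and the other members have the same sign.

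**Figure D1:**
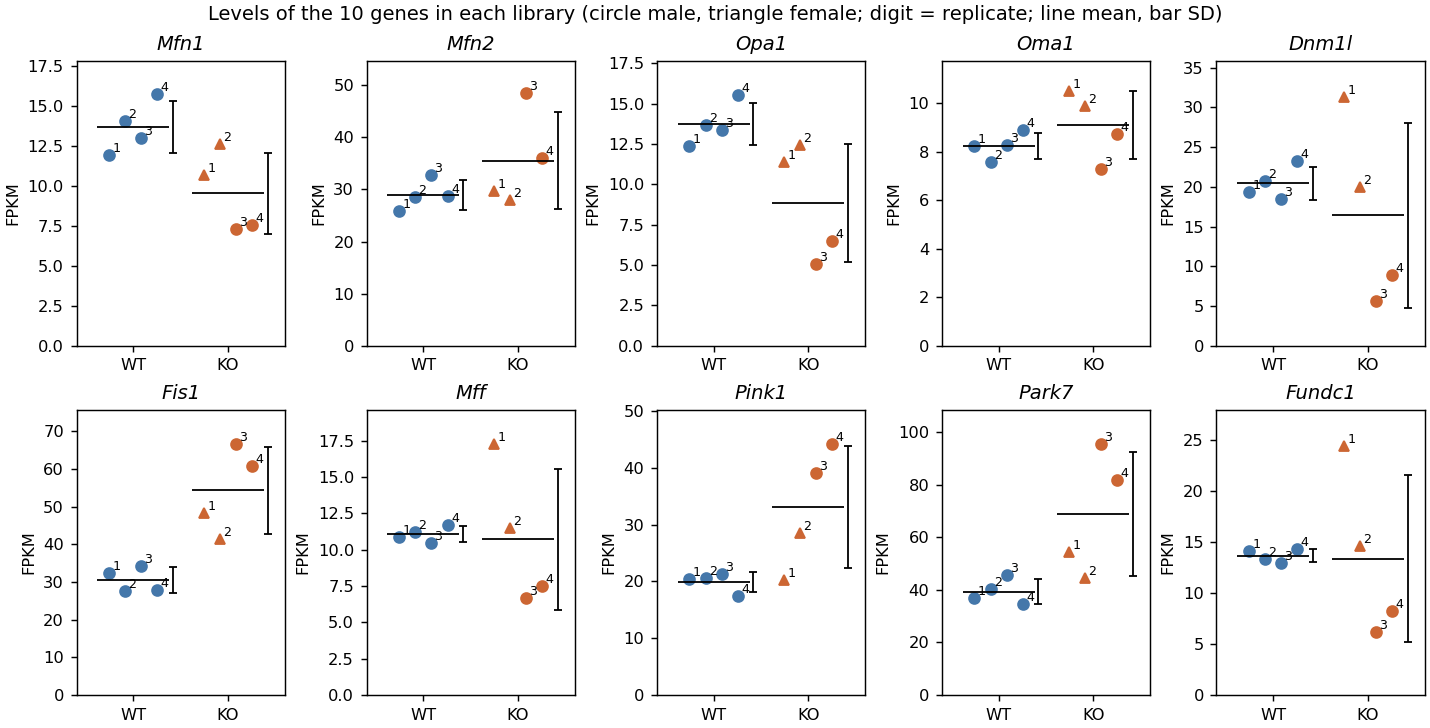
FPKM of the 10 genes in each library, with WT in blue and KO in orange, circles for male and triangles for female libraries, a line at the group mean and a bar of 1 SD. In 9 of the 10 panels KO 3 and 4 lie together on 1 side of all other libraries, and KO spreads more widely than WT in every panel.

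The plot of levels by library shows where the spread comes from. KO 3 and 4 both lay above the 6 other libraries for 4 members, Fis1, Park7, Pink1 and Mfn2, and both below them for 5, Mfn1, Opa1, Dnm1l, Mff and Fundc1; among all genes 18.1% lay above and 27.2% below. Oma1 was the exception. In the comparison of male libraries alone, KO 3 and 4 against the 4 WT libraries, the same 9 members passed (4 rose and 5 fell, limma adjusted p from 0.00324 to 0.0301), and 44.4% of all genes passed too (17.6% higher, 26.7% lower). A term for sex in the fit of all 8 libraries called 9 of 10 members, against 34.2% of all genes, and gives the same differences, because the female libraries have no WT partner. When KO 3 and 4 were left out, 0 of 10 passed with KO 1 and 2 alone, against 0.099% of all genes, and 1 of 10, Fis1, had an unadjusted p below 0.05, against 16.2%. These comparisons use the same WT libraries and are not independent of each other.

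Among the fusion genes, the mitofusins parted. Mfn1, on chromosome 3 (32529465 to 32579239, GRCm38), was read at 11.94, 14.05, 13.01 and 15.76 FPKM in WT 1 to 4 and at 10.68, 12.61, 7.29 and 7.57 FPKM in KO 1 to 4. KO 3 and 4 were the lowest, while KO 2 lay within the WT range. The means of Mfn1 were 13.7 ± 1.63 and 9.54 ± 2.56 FPKM (SD, n = 4), a log2 difference of -0.50 (SE 0.20, limma adjusted p = 0.232). Mfn2, its paralog, which also tethers mitochondria to the endoplasmic reticulum, was read at 25.86, 28.48, 32.68 and 28.68 FPKM in WT and at 29.65, 27.91, 48.52 and 36.03 FPKM in KO. KO 1 and 2 lay inside the WT range and KO 3 and 4 above it. The log2 difference of Mfn2 was 0.26 (SE 0.20, limma adjusted p = 0.468), and 0.10 without KO 3.

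The balance of the paralogs therefore differed by library. Mfn2 stood at 1.82 to 2.51 times the level of Mfn1 in the WT libraries, at 2.78 and 2.21 times in KO 1 and 2, and at 6.66 and 4.76 times in KO 3 and 4. In the male comparison Mfn1 fell by 0.80 on the log2 scale (SE 0.13, limma adjusted p = 0.00457) and Mfn2 rose by 0.52 (SE 0.15, limma adjusted p = 0.0301). Neither passed there after removal of a trend on length and GC content, described below (limma adjusted p of 0.139 and 0.0988).

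Opa1, the inner-membrane fusion GTPase, followed Mfn1. It was read at 12.35, 13.66, 13.36 and 15.50 FPKM in WT and at 11.41, 12.46, 5.04 and 6.48 FPKM in KO 1 to 4. The KO 3 and 4 levels averaged 42.0% of the WT mean, whereas KO 2 lay inside the WT range and KO 1 just under it. Over all libraries Opa1 had a log2 difference of -0.65 (SE 0.26, limma adjusted p = 0.234), and in the male comparison it fell by 1.13 (SE 0.14, limma adjusted p = 0.00328). Oma1, the stress-activated protease that cleaves Opa1 and so stops inner-membrane fusion, was the steadiest member in KO, at 8.26, 7.58, 8.30 and 8.90 FPKM in WT and 10.51, 9.88, 7.29 and 8.74 FPKM in KO 1 to 4. It was highest in KO 1 and 2 and lowest in KO 3, and the groups overlapped (log2 difference 0.12, SE 0.16, limma adjusted p = 0.696). Opa1 stood at 1.49 to 1.80 times Oma1 in WT, 1.09 and 1.26 times in KO 1 and 2, and 0.69 and 0.74 times in KO 3 and 4, so that this ratio did not overlap between the groups. The ratio of Opa1 to Oma1 was formed after the values were seen, and none of the ratios between members given here was tested.

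The fission genes held both the member with the widest spread and the member with the clearest separation. Dnm1l, the GTPase that constricts the outer membrane, was read at 19.34, 20.78, 18.44 and 23.23 FPKM in WT and at 31.24, 19.99, 5.59 and 8.95 FPKM in KO 1 to 4. KO 1 was the highest of the 8 libraries, KO 2 lay within WT, and KO 3 and 4 were the lowest. The highest KO library held 5.58 times the lowest, against 1.26 times in WT, and the log2 difference over all libraries was -0.56 (SE 0.43, limma adjusted p = 0.474). Without KO 3 it was -0.18, and without KO 1 it was -0.94. In the male comparison Dnm1l fell by 1.40 (SE 0.18, limma adjusted p = 0.00343), the largest change of any member, while KO 1 and 2 against WT gave 0.28 (SE 0.20, limma adjusted p = 0.492).

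Fis1, a small tail-anchored protein of the outer membrane long linked to fission, was higher in every KO library than in any WT library. It was read at 32.33, 27.48, 34.30 and 27.72 FPKM in WT and at 48.38, 41.32, 66.72 and 60.81 FPKM in KO. These values rest on 803 to 1044 reads per WT library and 1267 to 2144 per KO library. The means of Fis1 were 30.5 ± 3.40 and 54.3 ± 11.55 FPKM (SD, n = 4), 1.78 times as high in KO, with a log2 difference of 0.80 (SE 0.19, limma adjusted p = 0.124), which did not pass. In the male comparison it rose by 1.05 (SE 0.13, limma adjusted p = 0.00328), and KO 1 and 2 against WT gave 0.55 (SE 0.16, limma adjusted p = 0.191). The authors' deposited table gives a log2 fold change of 0.96 and an adjusted p of 0.656 for Fis1. These come from the authors' own test, which appears to be adjusted over 24602 genes, so that p is not comparable with the limma value. Its RefSeq upstream window is the first of those printed above.

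Mff, an outer-membrane receptor for Dnm1l, had the same order of KO libraries as Dnm1l. It was read at 10.88, 11.22, 10.43 and 11.69 FPKM in WT, the members' second tightest WT group with a highest to lowest ratio of 1.12, and at 17.24, 11.47, 6.66 and 7.46 FPKM in KO 1 to 4. KO 1 lay above and KO 3 and 4 below all WT libraries, so the means hardly differed (11.1 against 10.7 FPKM; log2 difference -0.13, SE 0.26, limma adjusted p = 0.794). Fis1 stood at 1.19 to 1.86 times Dnm1l in WT, at 1.55 and 2.07 times in KO 1 and 2, and at 11.93 and 6.80 times in KO 3 and 4. The ratio of Mff to Dnm1l ran from 0.50 to 0.57 in WT and was 0.55 and 0.57 in KO 1 and 2, and was 1.19 and 0.83 in KO 3 and 4.

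Of the mitophagy genes, Pink1 and Park7 had higher KO means and Fundc1 did not. Pink1, a kinase that builds up on damaged mitochondria, was read at 20.36, 20.63, 21.38 and 17.41 FPKM in WT and at 20.34, 28.58, 39.21 and 44.29 FPKM in KO 1 to 4. KO 1 lay within the WT range and the other KO libraries above it. The log2 difference was 0.65 (SE 0.24, limma adjusted p = 0.208) over all libraries, and in the male comparison Pink1 rose by 1.03 (SE 0.12, limma adjusted p = 0.00324).

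Park7, which encodes the redox-sensitive protein DJ-1, was the most abundant member by FPKM. It was read at 36.98, 40.16, 45.54 and 34.55 FPKM in WT and at 54.31, 44.30, 95.43 and 81.60 FPKM in KO 1 to 4. Only KO 2 fell inside the WT range, below WT 3. The log2 difference of Park7 was 0.74 (SE 0.25, limma adjusted p = 0.193), and in the male comparison it rose by 1.15 (SE 0.14, limma adjusted p = 0.00328). Without KO 2, Park7 and Fis1 passed (limma adjusted p = 0.0439 and 0.0304, with 8.05% of all genes called).

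Fundc1, the only X-linked member (17556564 to 17572325 on the minus strand, GRCm38), was read at 14.13, 13.34, 12.90 and 14.34 FPKM in WT and at 24.44, 14.66, 6.14 and 8.24 FPKM in KO 1 to 4. Its WT libraries agreed more closely than those of any other member, with a highest to lowest ratio of 1.11, against 3.98 in KO. The 2 female libraries were the highest of the 8, KO 2 only just, and the 2 male KO libraries the lowest, so genotype and sex cannot be told apart for KO 1 and 2. The means were 13.7 ± 0.673 and 13.4 ± 8.22 FPKM (SD, n = 4; log2 difference -0.20, SE 0.35, limma adjusted p = 0.753), and in the male comparison Fundc1 fell by 0.85 (SE 0.13, limma adjusted p = 0.00417).

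By mean WT level the order of the members was Park7 (39.3 ± 4.75 FPKM), Fis1 (30.5 ± 3.40), Mfn2 (28.9 ± 2.81), Dnm1l (20.4 ± 2.09), Pink1 (19.9 ± 1.74), Opa1 (13.7 ± 1.31), Mfn1 (13.7 ± 1.63), Fundc1 (13.7 ± 0.673), Mff (11.1 ± 0.529) and Oma1 (8.26 ± 0.541; SD, n = 4 each). Fis1 and Mfn2, Dnm1l and Pink1, and the 3 genes near 13.7 FPKM lay within each other's spread. In KO 3 the order opened up, from 95.43 FPKM for Park7 to 5.04 FPKM for Opa1.

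The members also differ in a property that the rule did not use. GC content of the longest transcript was 37.31% in Mff, 38.78% in Fundc1, 40.9% in Dnm1l, 43.55% in Opa1 and 45.88% in Mfn1, the 5 that were low in KO 3 and 4. It was 48.51% in Oma1, and 52.93% in Park7, 53.14% in Mfn2, 54.43% in Fis1 and 58.99% in Pink1, the 4 that were high. Exon-union length did not sort them as cleanly: Fundc1 (2353 bp) was low there and Mfn2 (5194 bp) was high. The same tilt ran through the whole table. Among genes of 30 to 40% GC the median difference of KO 3 and 4 from WT was -0.95 on the log2 scale, and it was -0.71, -0.30, 0.19, 0.46 and 0.56 in the ranges that end at 45, 50, 55, 60 and 70%. In KO 1 and 2 the medians of the same ranges ran the other way, from 0.17 to -0.22. As a description across genes, which are not independent replicates, Spearman's rho of GC content with the difference of KO 3 and 4 from WT was 0.76 over the 10 members and 0.66 over the 12058 genes with a mean of at least 1 FPKM. For KO 1 and 2 it was -0.152 and -0.204. With exon-union length rho was -0.527 over the members and -0.433 over the 12058 genes for KO 3 and 4. For KO 1 and 2 the values with length were -0.503 and -0.275, of the same sign.

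**Figure D2:**
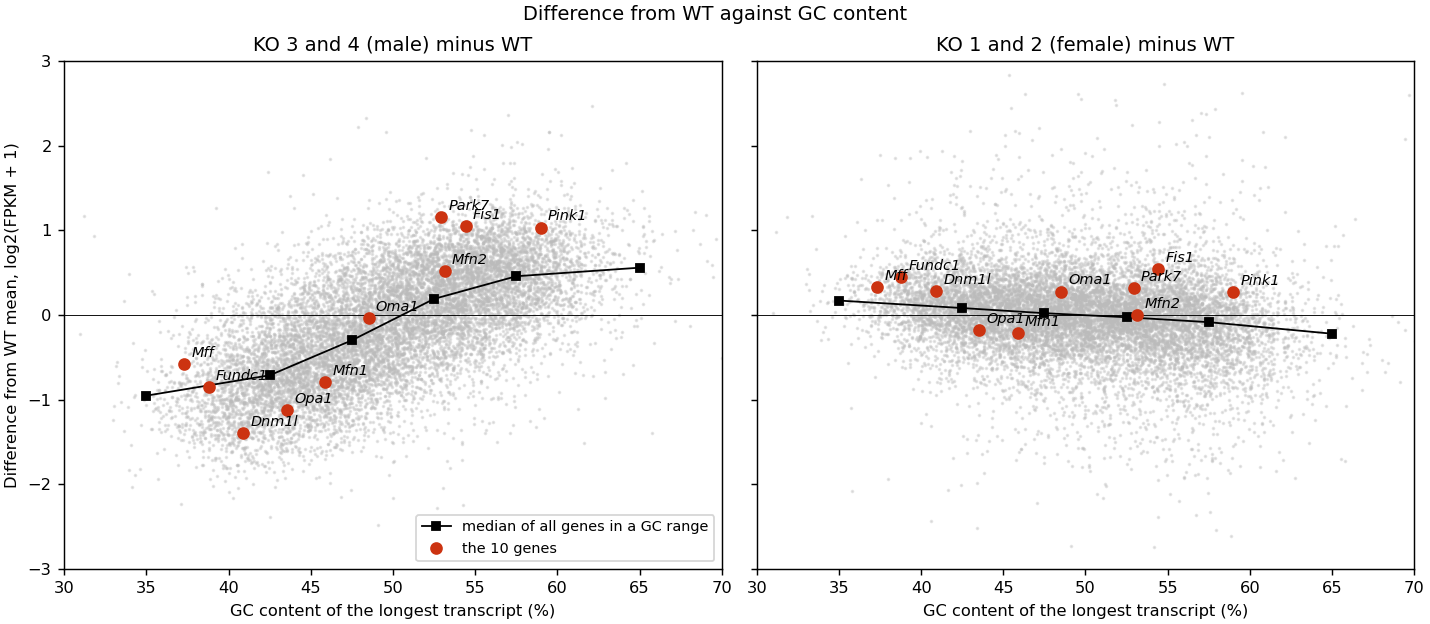
Difference from the WT mean on the log2(FPKM + 1) scale against GC content of the longest transcript, for KO 3 and 4 on the left and KO 1 and 2 on the right, with all genes in grey, medians by GC range in black and the 10 members in red. On the left the members lie between Dnm1l at -1.40 and Park7 at 1.15. Mff, Fundc1, Dnm1l, Opa1 and Mfn1, of lower GC content, lie below 0. Park7, Mfn2, Fis1 and Pink1, of higher GC content, lie above 0, on the sides to which the grey cloud tilts. On the right the members lie between -0.21 and 0.55.

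After each library was freed of its trend on length and GC, the male comparison called 6 of 10 members, against 22.9% of all genes (12.2% higher, 10.7% lower). Dnm1l fell by 0.70 (SE 0.10, limma adjusted p = 0.0109) and Fundc1 fell by 0.44 (SE 0.09, limma adjusted p = 0.0186). Park7 rose by 0.74, Fis1 by 0.50 and Pink1 by 0.43 (limma adjusted p of 0.0136, 0.0194 and 0.0231). Mff changed sides: it rose by 0.57 (limma adjusted p = 0.0213) where it had fallen by 0.58 before. The trend at the length and GC content of Mff was -1.09 and -0.66 on the log2 scale in KO 3 and 4, against 0.08 to 0.45 in WT. Mfn1, Mfn2 and Opa1 no longer passed (-0.26, 0.43 and -0.30; limma adjusted p of 0.139, 0.0988 and 0.0633). Across all 8 libraries 0 of 10 passed after this step, against 0.0142% of all genes (4 of 10 at an unadjusted p below 0.05), and Fis1 and Pink1 had a log2 difference of 0.49 (SE 0.12) and 0.40 (SE 0.10). After removal of the trend the difference of Fis1 from WT was 0.49 in KO 1 and 2 and 0.50 in KO 3 and 4, that of Pink1 was 0.36 and 0.43, and that of Park7 was 0.29 and 0.74.

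**Figure D3:**
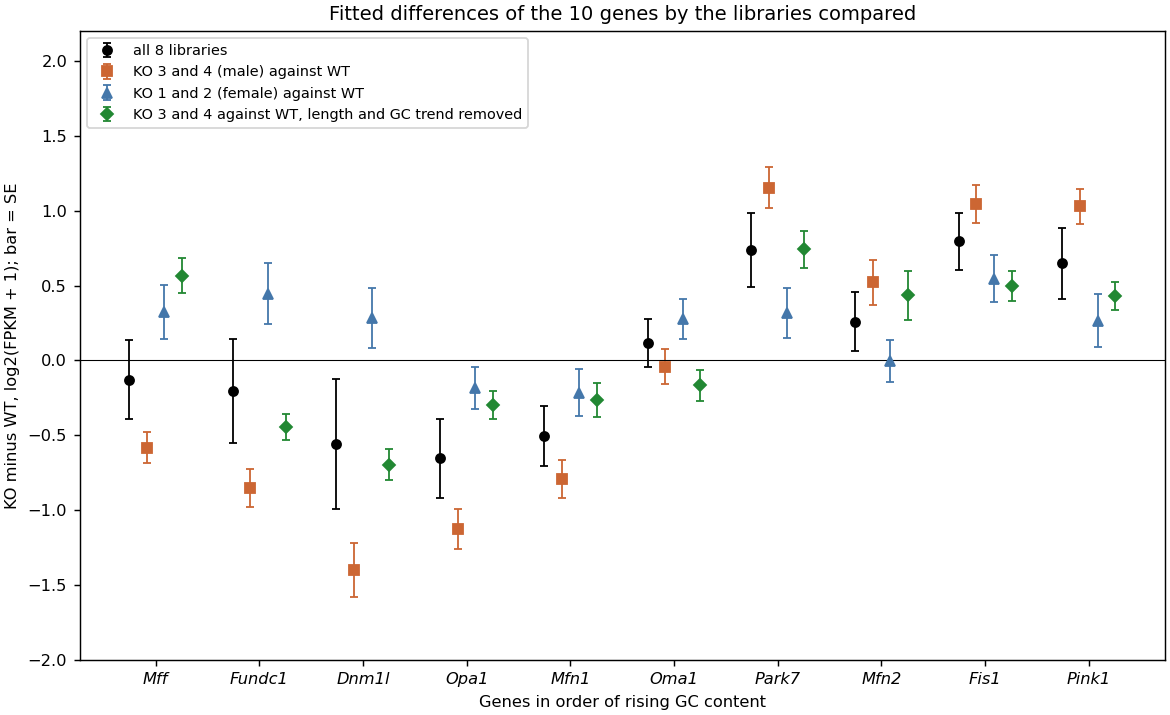
Fitted KO minus WT differences of the 10 genes on the log2(FPKM + 1) scale with SE bars, in order of rising GC content, for all 8 libraries, for KO 3 and 4, for KO 1 and 2, and for KO 3 and 4 after removal of the trend on length and GC. Fis1, Park7 and Pink1 lie above 0 in all 4 comparisons, Mfn1 and Opa1 below 0 in all 4, and the other 5 lie on both sides.

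Other genes of the same processes were taken from lists by function. KO 3 and 4 lay together above the 6 other libraries for 7 of 14 fusion, 4 of 11 fission, 7 of 20 mitophagy and 1 of 5 transport genes, and together below them for 3, 4, 7 and 3, beside 18.1% and 27.2% of all genes. In the lists of fusion, fission, mitophagy and transport genes 0 passed over all 8 libraries by limma, and 4, 0, 4 and 0 had an unadjusted p below 0.05, beside 0.0778% and 19.2% of all genes. Of 14 measured fusion and inner-membrane genes 9 were higher and 5 lower (median log2 difference 0.17, against -0.06 over all genes). Chchd6, a subunit of the complex that holds cristae junctions, was read at 4.65 to 6.80 FPKM in WT and 8.20 to 13.53 FPKM in KO (log2 difference 0.87, limma adjusted p = 0.120), and Spg7, a subunit of an inner-membrane protease, at 17.14 to 19.17 against 22.79 to 29.38 FPKM (log2 difference 0.53, limma adjusted p = 0.154). In both genes every KO library lay above every WT library, beside 4.76% of all genes. Phb, a prohibitin scaffold subunit, was read at 31.46 to 35.15 FPKM in WT. It was at 44.16 and 33.18 FPKM in KO 1 and 2 and at 64.93 and 62.24 FPKM in KO 3 and 4. Miga1, a mitoguardin that promotes fusion, was at 4.24 to 5.54 FPKM in WT and went down to 1.36 and 2.16 FPKM in KO 3 and 4 (4.06 and 4.40 FPKM in KO 1 and 2). In the male comparison after removal of the trend, Miga1 stood at -0.02 (limma adjusted p = 0.902). Chchd6, Spg7 and Phb stood there at 0.75, 0.42 and 0.42 (limma adjusted p of 0.0227, 0.0219 and 0.0226).

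Of 11 measured fission genes 7 were higher and 4 lower (median 0.10), and 0 had an unadjusted p below 0.05. Inf2, a formin that builds actin at sites of division, was read at 17.21 to 32.41 FPKM in WT and at 28.29, 32.30, 49.79 and 46.36 FPKM in KO 1 to 4. The Dnm1l receptors Mief1 and Mief2 were read at 5.78 to 7.04 and 4.12 to 4.62 FPKM in WT, and at 4.73 to 5.69 and 3.72 to 8.24 FPKM in KO. Mief1 was thus lower in each KO library than in any WT library, beside 6.86% of all genes, and Mief2 spread to both sides. The log2 difference of Mief1 was -0.24 (limma adjusted p = 0.386), and 0.0087 after removal of the trend on length and GC. Mtfr1l, a regulator of mitochondrial shape, was at 15.91 to 17.55 against 17.48 to 23.00 FPKM.

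Of 20 measured mitophagy genes 9 were higher and 11 lower (median -0.05). Sqstm1, the ubiquitin-binding cargo receptor p62, was read at 177.12 to 233.97 FPKM in WT and at 372.27, 216.46, 559.14 and 445.25 FPKM in KO 1 to 4, so that KO 2 alone overlapped WT (log2 difference 0.85, limma adjusted p = 0.195). Fkbp8, a mitophagy receptor of the outer membrane, was higher in each KO library than in any WT library, beside 4.76% of all genes. It was read at 30.08 to 36.67 FPKM in WT against 42.33 to 89.74 FPKM in KO (log2 difference 0.79, limma adjusted p = 0.180). Tomm7, which helps hold Pink1 at the outer membrane, was at 5.43 to 8.11 FPKM in WT and 12.89, 7.55, 18.77 and 15.23 FPKM in KO. It combines a GC content of 44.0% with higher levels in KO 3 and 4, against the tilt of the table. Usp8, a deubiquitinase, was at 34.64 to 38.88 FPKM in WT and 28.03, 35.78, 20.61 and 20.77 FPKM in KO. Of the 5 genes that carry mitochondria along microtubules 2 were higher and 3 lower (median -0.22). Kif5b, the kinesin heavy chain, was at 31.60 to 43.37 FPKM in WT, 52.95 and 40.16 FPKM in KO 1 and 2, and 8.23 and 15.49 FPKM in KO 3 and 4, and the other lowest p values in that list belonged to Trak2, Rhot1 and Rhot2, at log2 differences of -0.39, -0.22 and 0.15.

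**Figure D4:**
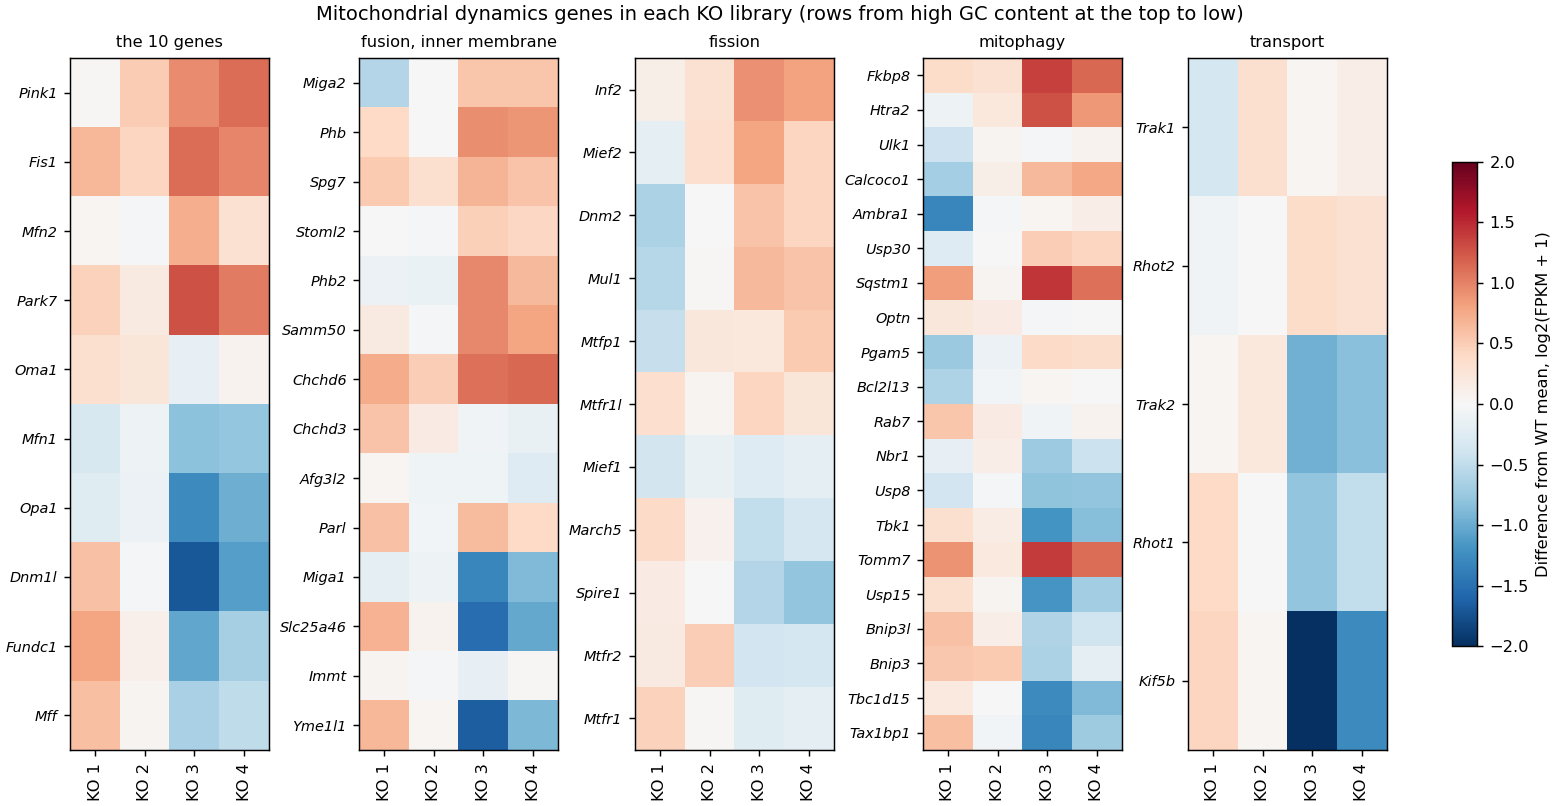
Difference of each KO library from the WT mean, log2(FPKM + 1), for the 10 members and for every measured gene of the fusion, fission, mitophagy and transport lists, with rows ordered within each block from high to low GC content. In KO 3 and 4 most upper rows are red and most lower rows blue, with Tomm7 (44.0% GC) as an exception, while KO 2 is pale in most rows.

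In the male comparison 11 of 14 fusion genes passed (8 rose, 3 fell), 7 of 11 fission genes (5 rose, 2 fell), 14 of 20 mitophagy genes (7 rose, 7 fell) and 3 of 5 transport genes (all 3 fell), beside the background of 44.4% of all genes given above. After removal of the trend these counts were 10 (9 rose, 1 fell), 1 (fell), 8 (6 rose, 2 fell) and 2 (1 rose, 1 fell), beside 22.9%. Fission genes thus went from 7 calls to 1, and March5, a ubiquitin ligase of the outer membrane that is named here after its values were seen, was that one, at 37.07 to 42.46 FPKM in WT and 28.46 and 32.03 FPKM in KO 3 and 4. KO 1 and 2 lay on the other side of WT for March5, at 53.00 and 43.25 FPKM.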

How the data were processed

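RNA-seq of 4 WT and 4 KO libraries was analysed from 1 deposited table of 14145 genes. FastQC, STAR 2.4.1d, DESeq2 and GRCm38 are named, per the submitters' processing notes, while the sources used here give neither the counter nor the row filter. Per the file headers the table holds 1 value per library, and the values, which carry decimals, were taken as the authors' FPKM. The deposited table also holds the authors' log2 fold change and p-values. Times exon-union length in GENCODE M21 (GRCm38, 14129 genes matched), FPKM fell on whole multiples of 1 step, 95.0% to 95.5% of low values within 0.05 read, which gave depths of 17040000 to 18750000. All genes were fitted as log2(FPKM + 1) in limma 3.58.1 (R 4.3.3) with a variance trend and 1 term, genotype. Adjustment was by Benjamini-Hochberg, with a threshold of 0.05. Such differences understate changes of low genes. The fit was tested on simulated data. Length and GC trends were removed per library by lowess (span 0.3). Python 3.11.15, numpy 2.4.6, pandas 2.3.3 and matplotlib 3.10.9 were used for tables and plots.

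The members, lists and alternatives were chosen with earlier results of these data known. All members are named, and of each other list up to 4 measured genes of lowest p, with Aldh2 and sex-linked transcripts as checks. Genes named outside this rule (Krt8, Krt18, Aqp1, March5, Tfam, Hspd1, Gabpa, Nrf1) were chosen after their values were seen. Alternatives were a pseudocount of 0.1, a filter (4 or more libraries at 1 FPKM or above), no variance trend, a replicate block, median-ratio scaling, a sex term, male libraries alone, KO 3 and 4 left out, the trend on length and GC removed, limma-voom with sample weights on recovered reads, and each library left out. Removal of the trend within the male libraries, and without KO 3 and 4, was added after seeing the data. Exons of Dnm1l and Mff overlap genes on the opposite strand, and whether counting used strand is not stated. No column of values was without a sample (0 columns).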

Additional observations from a re-analysis of the deposited data

How the results depend on the processing

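Over all genes 11 passed in all 8 libraries, and 3 at a pseudocount of 0.1, 2 after removal of the length and GC trend, 4838 with a sex term, 6275 in the male libraries alone, 3233 there with the trend removed, 7502 with limma-voom, and 1 to 1139 when 1 library was left out. Of the members 0 passed in all 8 libraries, and 9 with a sex term, 9 in the male libraries, 6 there with the trend removed, 8 with limma-voom, and 0 to 2 when 1 library was left out, the 2 being Fis1 and Park7 without KO 2. The replicate block left 1 gene past the threshold and 0 members. The labels name no pairing of WT and KO libraries by replicate number. Correlations of deviations from the group means were 0.04, -0.20, 0.56 and -0.06 for numbers 1 to 4. With 1 pair per number they cannot settle whether same-numbered libraries were paired. Directions turned as follows. Without KO 3 and 4, Dnm1l stood at 0.28, Mff at 0.32, Fundc1 at 0.44 and Mfn2 at -0.0028, and with the trend removed as well Dnm1l at 0.17, Mff at 0.27 and Fundc1 at 0.17. Oma1 stood at -0.042 in the male libraries and with a sex term, at -0.0022 with the trend removed and at -0.17 with both. Mff stood at 0.42 with the trend removed and at 0.57 there in the male libraries. With 1 library left out Dnm1l ranged from -0.94 to -0.18, Mfn2 from 0.10 to 0.36, Oma1 from 0.05 to 0.21, Mff from -0.37 to 0.046 and Fundc1 from -0.54 to 0.075, Mff and Fundc1 both highest without KO 3 and lowest without KO 1. Of 200 alternative values of single members 152 kept direction and side of the threshold, 33 passed it newly and 15 turned; the causes were not tested. Fis1, Park7, Pink1, Mfn1 and Opa1 kept their direction in every alternative run, with adjusted p (limma) from 0.000945 to 0.424 for Fis1. Median-ratio scaling moved the median of all genes from -0.06 to -0.01 and turned no member. At 271 to 4726 reads per library counting error is small for every member, and the spread between KO libraries limits precision.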

Other observations

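Nuclear genes often used to follow the amount of mitochondria formed another list. Of 15 measured genes of mitochondrial import, porins, biogenesis and matrix markers 9 were higher and 6 lower in KO (median log2 difference 0.20, against -0.06 over all genes), and 0 passed over all genes by limma (2 at an unadjusted p below 0.05, beside 19.2% of all genes). Vdac1, the main porin of the outer membrane, was at 104.01, 102.79, 104.22 and 129.43 FPKM in WT and at 176.76, 130.69, 157.10 and 167.41 FPKM in KO (log2 difference 0.51, limma adjusted p = 0.197). Tomm20, a receptor for protein import, was at 27.48, 28.15, 28.27 and 28.87 FPKM in WT and at 46.54, 34.91, 35.81 and 36.55 FPKM in KO (log2 difference 0.43, limma adjusted p = 0.201). In both genes every KO library lay above every WT library, beside 4.76% of all genes. Nrf1 went the other way, lower in every KO library (2.46 to 3.06 FPKM) than in any WT library (3.12 to 3.32 FPKM), beside 6.86% of all genes. Its log2 difference was -0.17 (limma adjusted p = 0.527). In the male comparison 9 of the 15 passed, of which 6 rose and 3 fell, beside 44.4% of all genes. Those that fell were Tfam, Hspd1 and Gabpa, at -0.66, -0.80 and -1.20. After removal of the trend on length and GC 9 passed there (8 rose, 1 fell), beside 22.9% of all genes. Tfam and Gabpa no longer passed (-0.24 and -0.46, limma adjusted p of 0.112 and 0.169), while Hspd1 did (-0.75, limma adjusted p = 0.0200). Nrf1 changed sides, at 0.61 (limma adjusted p = 0.0216).

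All 12 measured transcripts of the mitochondrial genome were lower in KO 3 and 4 than in the 6 other libraries, beside 27.2% of all genes. Their median log2 difference was 0.20 when KO 3 and 4 were left out. The list had a median GC content of 37.37%, and genes of 30 to 40% GC had a median of -0.95 in KO 3 and 4. In the male comparison all 12 fell and passed, beside 26.7% of all genes. After removal of the trend 11 fell and passed there (list median -1.07), beside 10.7% of all genes. The 4 of lowest p over all libraries were mt-Nd5, mt-Nd4l, mt-Cytb and mt-Co1, at log2 differences of -1.36, -1.11, -0.88 and -0.92 (limma adjusted p from 0.206 to 0.369). For mt-Nd5 the WT libraries held 1092.83 to 2009.23 FPKM, KO 1 and 2 held 796.02 and 1188.65 FPKM, and KO 3 and 4 held 235.80 and 357.53 FPKM. The biogenesis coactivator Ppargc1b was at 0.38 to 1.53 FPKM in WT and 0.11 to 0.42 FPKM in KO, and the import subunit Tomm22 at 36.92 to 53.00 against 41.51 to 77.50 FPKM, both with overlapping groups.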
